A study of Danio rerio with 4 samples.

Results

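Broad CTCF peaks are the widest intervals in a ChIP-seq map of CTCF made from whole 24 hpf (hours post fertilisation) zebrafish embryos. They were chosen by width alone, as peaks of 700 bp or more on chromosomes 1 to 25 without chromosomes 4, 18 and 22. Of the 37625 peaks in the list, 1407 met this rule, which is 4.39% of the 32075 peaks on the 22 chromosomes. They were set against the 24156 narrow peaks of the same chromosomes, which are at most 354 bp wide. The remaining 6512 peaks, wider than 354 bp and under 700 bp, are called intermediate here.

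The embryos were of the AB strain with the genotype ctcf{HPSH}, came from crosses of ctcf HA/wt fish, and the labels name no treatment. The map came from 2 ChIP libraries made with an antibody against the HA epitope, each from 2000 embryos, and there were 2 libraries of input DNA of the same embryos. Every cell type of the embryo was pooled, and the list was called on the combined replicates, so values per replicate and sequencing depth were not analysed here. The tests below treat chromosomes as units, and their p-values say nothing of variation from embryo to embryo.

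CTCF recognises a short DNA motif with its array of zinc fingers. With the ring-shaped cohesin complex it holds the bases of chromatin loops and marks borders between domains in vertebrates. Because a single bound site occupies little DNA, CTCF usually gives sharp ChIP-seq peaks. A peak's width in such a list is the distance between the edges set by the caller, and its summit is the base with the highest signal. Whether the signal stayed above the caller's threshold along the whole width was not analysed here. The name broad rests on width only, and neither the genes nor the DNA sequence at these positions were analysed here.

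Broad peaks covered 1.33 Mb, or 12.6% of the 10.5 Mb under all peaks of the 22 chromosomes. Their median width was 827 bp (quartiles 743 and 1032 bp). Under 800 bp wide, close to the threshold, were 629 of them (44.7%). At the other extreme 381 (27.1%) reached 1000 bp, 83 reached 1500 bp, 27 reached 2000 bp and 2 exceeded 3000 bp. The 13 peaks of exactly 700 bp, just inside the threshold, had scores from 221 to 1083 with a median of 569. The 7 peaks 1 bp narrower, just outside, had scores from 242 to 1214 with a median of 508.

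The widest peak, 4101 bp on chromosome 24 (988858 to 992958), had a score of 1274, and its summit at 991812 lay 2954 bp from its start. It lay 0.991 Mb from the chromosome end, and the next peak began 417 bp to its right. The second, 3298 bp on chromosome 8 (39502131 to 39505428), had a score of 555 and a summit near its middle, at 51.2% of its width. Both were far wider than any narrow peak, but their scores differed by more than the distance between the quartiles of all broad peaks.

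Chromosome 24 carried the third widest peak as well, 2615 bp at 19726597 to 19729211 with a score of 1236, and the sixth, 2417 bp at 12457780 to 12460196 with a score of 612. The fourth was on chromosome 14 (13283717 to 13286227, 2511 bp) and the fifth on chromosome 17 (3014502 to 3016924, 2423 bp), with scores of 540 and 1752. The other 4 of the 10 widest lay on chromosome 9 (16132174 to 16134561), chromosome 2 (14834854 to 14837219), chromosome 17 (43134723 to 43137050) and chromosome 13 (15235274 to 15237593), with scores of 610, 1304, 539 and 633. The 10 widest peaks thus came from 7 chromosomes, had a median score of 622.5, and 6 of them had a neighbouring peak within 2 kb.

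The authors' peak score has no stated scale, so it is given in its own units and tested only by rank. It comes from the same call as the width, so comparisons of score between widths are a description with no test. Broad peaks had a median score of 642 (quartiles 458.5 and 892.5), narrow peaks 342 (264 and 467) and intermediate peaks 493.5. A score of 1000 or more was held by 250 broad peaks (17.8%) and by 255 narrow ones (1.06%). The ranges overlapped widely: 152 broad peaks (10.8%) scored below the narrow median, and 9.23% of narrow peaks scored at or above the broad median.

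Among broad peaks, width and score were barely related. Spearman's rho of width and score was 0.488 across narrow peaks, 0.155 across intermediate peaks and -0.06 across broad peaks, which are neighbours in 1 pooled data set and not independent replicates. From 700 bp to under 800 bp the score ran from 163 to 3960, with 10th and 90th percentiles of 336.6 and 1136. At 1000 to 1499 bp it ran from 202 to 3070, with percentiles of 330.4 and 1278. The narrowest class of broad peaks, under 800 bp, had the highest median of all width classes, 711, against 606 at 800 to 899 bp, 597 at 900 to 999 bp, 544.5 at 1000 to 1499 bp and 582 from 1500 bp upwards.

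**Figure D1:**
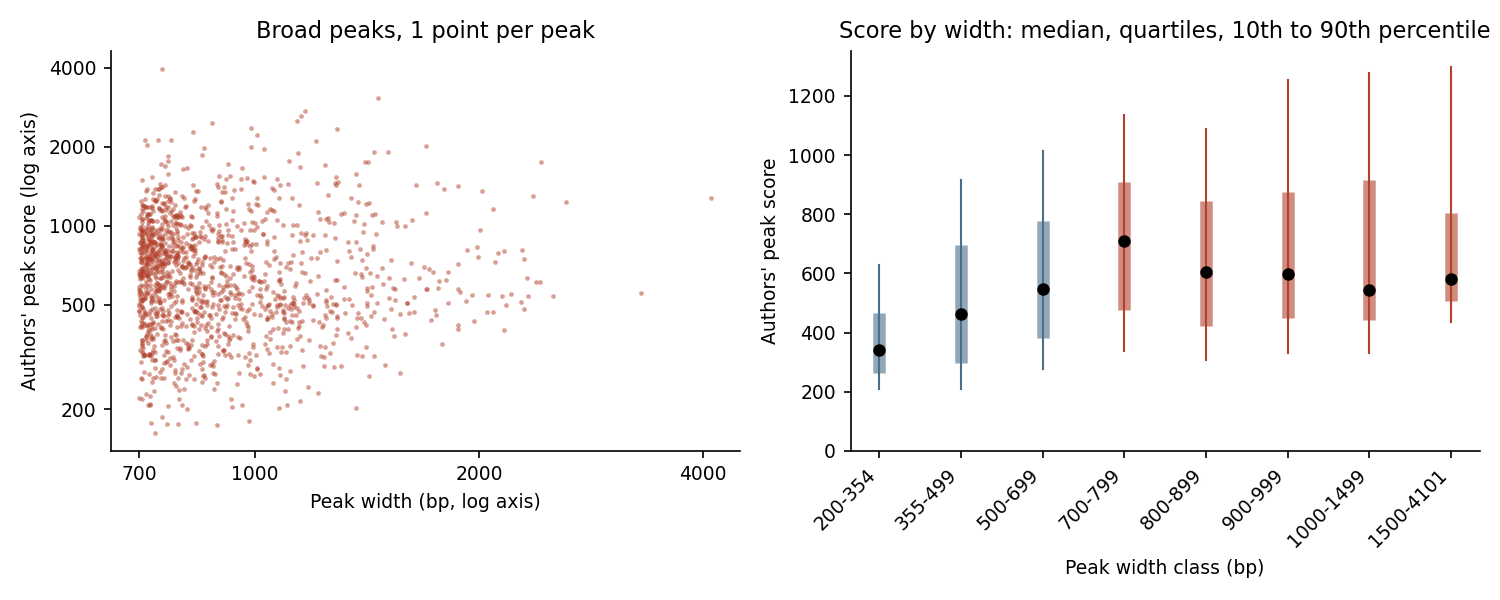
Left, the authors' peak score against width for the 1407 broad peaks, both on log axes. Right, the score by width class on the 22 chromosomes, with the median as a point, the quartiles as a thick bar and the 10th to 90th percentiles as a line (blue, under 700 bp; red, broad). The median rises to 711 between 700 and 800 bp and is 544.5 to 606 in the wider classes.

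The medians of peaks of 1000 bp or more lay below those of broad peaks under 800 bp on 18 of 22 chromosomes. Over all chromosomes, peaks of 1000 bp or more had a median score of 563 (n = 381). A peak of 1000 bp or more outranked a broad peak under 800 bp of the same chromosome in 44.5% of pairs on average, a departure of -5.51 ± 8.68 percentage points from 50% (SD, n = 22 chromosomes) that was negative on 17 of them. After peaks with gaps of 500 bp or less had been merged, the departure was -3.16 ± 6.95 points.

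The highest-scoring broad peak, at 3960, was 750 bp wide and lay on chromosome 10 (16836059 to 16836808), with its summit 196 bp from the nearer edge. The next 4 were 1139 to 1463 bp wide. They lay on chromosome 13 (9684995 to 9686457, score 3070), chromosome 20 (51613707 to 51614876, score 2728), chromosome 17 (48179037 to 48180191, score 2613) and chromosome 16 (2048254 to 2049392, score 2500). The one on chromosome 13 had a broad neighbour of 1405 bp scoring 1745 at a gap of 265 bp, and the one on chromosome 16 had a neighbour of 662 bp scoring 2121 at a gap of 1598 bp. Both therefore stood beside another high-scoring peak. The one on chromosome 20 had a broad neighbour of 809 bp scoring 697 at a gap of 408 bp, and the nearest neighbour on chromosome 17 scored 443 and lay 13.6 kb away.

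The 5 lowest-scoring broad peaks scored 163 to 177 and were 735 to 890 bp wide. The lowest lay on chromosome 12 (18678831 to 18679565). The others were on chromosome 1 (28604807 to 28605696, score 174), chromosome 14 (14605878 to 14606667, score 176), chromosome 17 (39895997 to 39896758, score 176) and chromosome 11 (22035113 to 22035945, score 177). None of the 5 reached the 10th percentile of narrow peaks, 210, although each was at least 735 bp wide.

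In a broad peak the summit usually lay away from the middle. Its median distance from the peak's middle was 24.1% of the width (quartiles 14.8% and 30.4%), against 5.6% in narrow peaks. The summit was in the outer parts of the peak, below 30% or above 70% of the way along it, in 882 broad peaks (62.7%), in 37.3% of intermediate peaks and in 908 narrow peaks (3.76%). It lay between 40% and 60% in 230 broad peaks (16.3%) and in 74.9% of narrow ones. A summit placed with equal odds anywhere along the width would give a median and shares near these broad ones. The outermost steps held fewer summits than such placement would give. Only 1.14% of broad summits lay below 10% of the width and 0.853% from 90% upwards. No test was made against such placement. The positions of broad summits formed a group on each side, with 15.2% of peaks at 20 to 30% and 20.3% at 70 to 80%, and only 7.82% at 50 to 60%. Left and right were nearly even, with 685 summits in the left part of the peak, 721 in the right and 1 exactly in the middle.

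The distances to the nearer and the farther edge changed differently with width. From the intermediate classes up to 999 bp, the median distance from the summit to the nearer edge stayed between 154 and 206 bp, while the distance to the farther edge grew from 259 to 735 bp. In broad peaks under 800 bp the medians were 200 and 537 bp, and at 900 to 999 bp they were 196 and 735 bp. Narrow peaks had 106 and 139 bp. Only above 1000 bp did the nearer edge move away too, to 274 bp at 1000 to 1499 bp and 523 bp from 1500 bp upwards. Between the classes below 1000 bp the extra width thus lay mostly on the farther side. That side is by definition the larger part of each peak, so it tends to take more of any added width. Whether the values depart from those of a summit placed with equal odds along the width was not tested. Across all broad peaks, Spearman's rho with width was 0.794 for the farther edge and 0.287 for the nearer edge. Both distances are parts of the width that chose the peaks, so these values are a description.

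**Figure D2:**
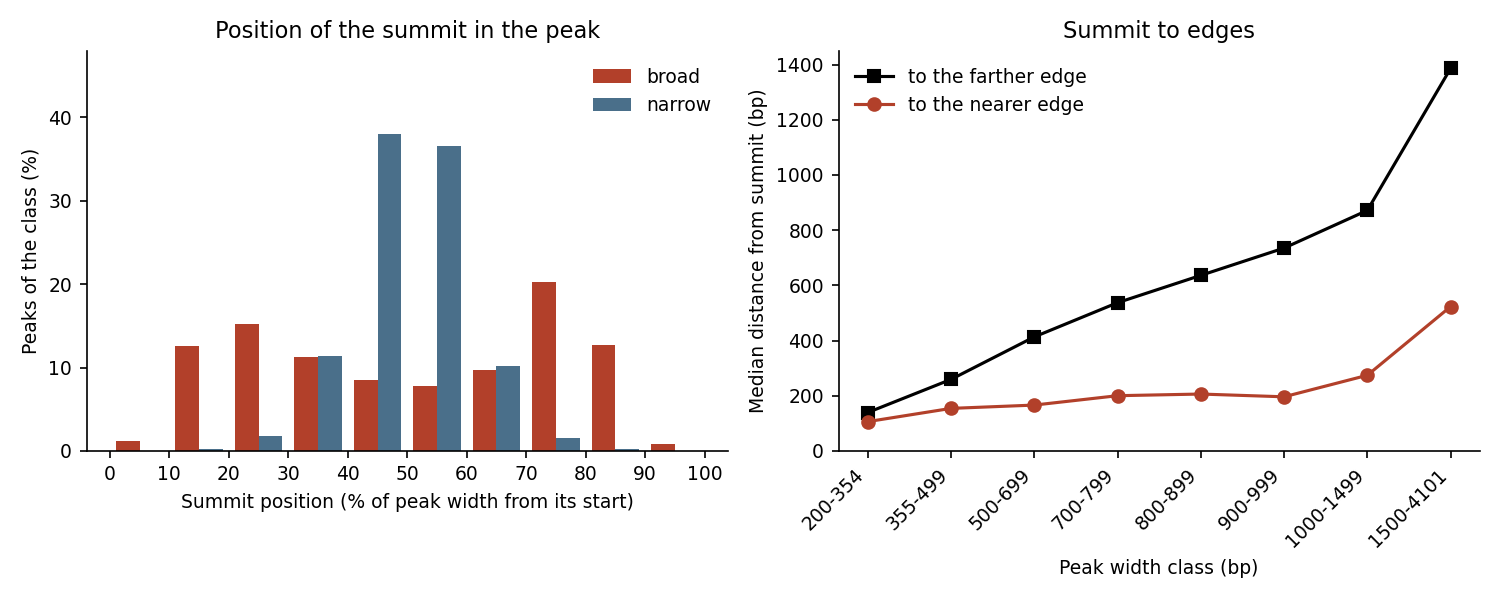
Left, position of the summit along the peak, in percent of its width, for broad (red) and narrow (blue) peaks in steps of 10%. Right, the median distance in bp from the summit to the nearer and the farther edge by width class. Broad summits form 2 groups, with 20.3% of peaks at 70 to 80%, and the nearer edge stays at 154 to 206 bp from the intermediate classes up to 999 bp of width.

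The extremes show the spread. The most centred summits were those of peaks on chromosome 8 (26103863 to 26104640), at the exact middle, chromosome 16 (17833116 to 17834010) and chromosome 23 (17730117 to 17731108). The least centred belonged to a 1696 bp peak on chromosome 23 (13039812 to 13041507), with the summit 120 bp from its start, a 1992 bp peak on chromosome 6 (32658094 to 32660085), with the summit 145 bp from its right edge, and a 1275 bp peak on chromosome 16 (16923976 to 16925250), with the summit 95 bp from its start. These 3 had scores of 574, 762 and 506.

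Broad peaks had closer neighbours than narrow peaks. The median gap from a peak's edge to the edge of the nearest other peak was 3092 bp for broad peaks, 6808 bp for intermediate peaks and 8391.5 bp for narrow peaks. A neighbour within 2 kb was present for 600 broad peaks (42.6%, 95% exact binomial interval 40.0 to 45.3%, counting error only) and for 22.9% of narrow ones (22.3 to 23.4%). Per chromosome the shares were 41.7 ± 8.00% and 22.9 ± 1.86% (SD, n = 22 chromosomes). The mean difference was 18.9 ± 7.46 percentage points and it was positive on 22 of 22 chromosomes, from 4.46 to 35.8 (two-sided sign-flip permutation test, p = 2e-05, the smallest possible with these resamples; adjusted p = 8e-05 over 4 tests). A wider peak reaches closer to its neighbours by its own extent. With centres within 2 kb instead of edges, the shares were 36.2% and 21.0%, a difference of 15.2 ± 6.82 points, positive on 22 of 22 chromosomes. Of intermediate peaks, 27.5% had a neighbour within 2 kb between edges. Against them the difference was 14.3 ± 7.78 points, positive on 22 of 22 chromosomes (sign-flip permutation test, adjusted p = 8e-05). This comparison with intermediate peaks was added after seeing the data.

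Most of this difference lay at very short gaps. A gap of 500 bp or less occurred in 386 broad peaks (27.4%) and in 2352 narrow peaks (9.74%). At 500 to 1000 bp the shares were 6.47% and 5.83%, and at 1 to 2 kb they were 8.74% and 7.31%. No peaks of the list lay closer than 101 bp. When peaks with gaps of 500 bp or less were merged first, the difference within 2 kb fell to 8.82 ± 4.09 points, positive on 22 of 22 chromosomes. The number of broad intervals rose to 2451, because merging turns close neighbours into broad intervals. The merged set was thus picked partly by its close neighbours, and its difference is a description with no test. Whether 1 bound region was called as several peaks, or closer ones were joined into 1 wider peak, was not tested. Such joining would tie width to crowding, and the permutation test on neighbours within 2 kb does not allow for it.

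**Figure D3:**
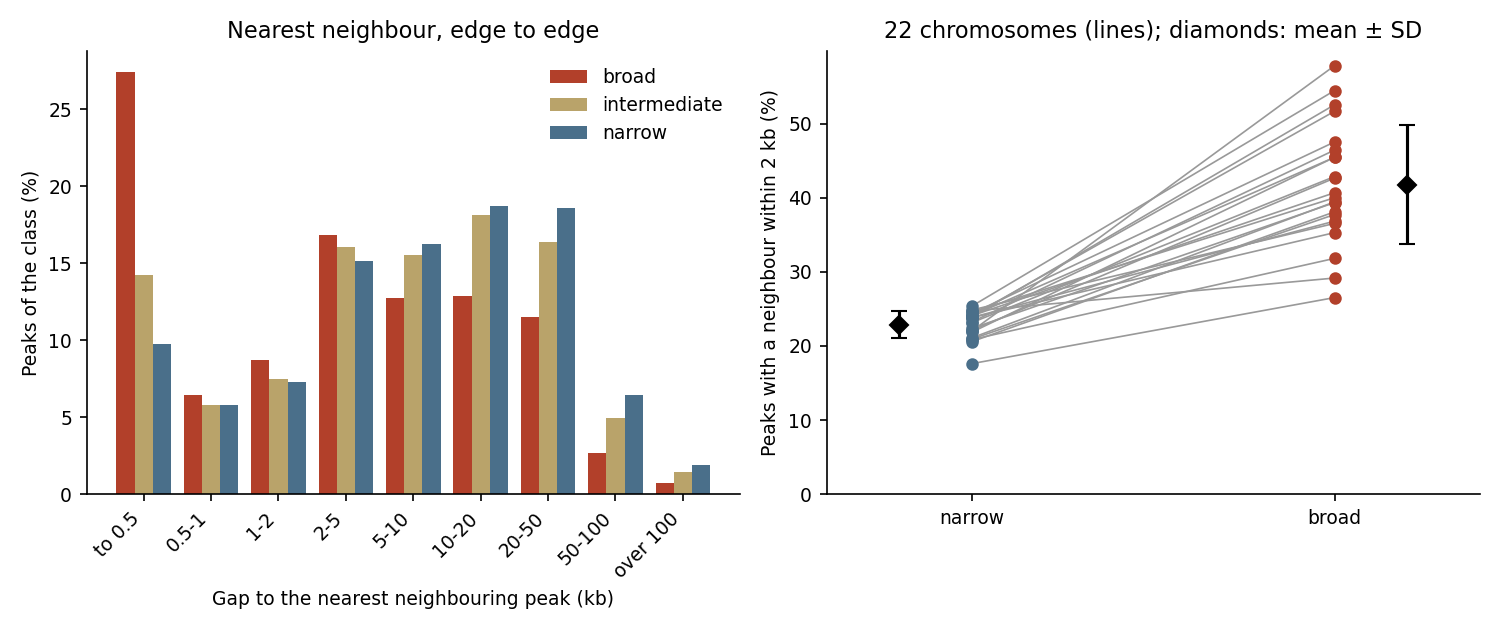
Left, the share of broad (red), intermediate (sand) and narrow (blue) peaks by the gap in kb to the nearest neighbouring peak. Right, the share with a neighbour within 2 kb on each of 22 chromosomes (points joined by lines), with the mean ± SD over chromosomes as diamonds. All 22 lines rise from narrow to broad, and 27.4% of broad peaks have a neighbour within 0.5 kb.

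Close neighbours were more frequent in the wider classes. They were present for 29.7% of broad peaks under 800 bp (95% exact binomial interval 26.2 to 33.5%), 46.25% at 800 to 899 bp, 41.4% at 900 to 999 bp, 61.1% at 1000 to 1499 bp (55.3 to 66.6%) and 66.3% from 1500 bp upwards (55.1 to 76.3%). The median gap fell from 5468 bp in broad peaks under 800 bp to 477 bp from 1500 bp upwards. Per chromosome, the share in peaks of 1000 bp or more exceeded that in broad peaks under 800 bp by 32.8 ± 15.8 points, on 22 of 22 chromosomes, and by 11.0 ± 11.0 points after merging within 500 bp. Width chose these groups, so no test is given.

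Broad peaks with a neighbour within 2 kb scored lower than those without. Their median scores were 533.5 (n = 600) and 723 (n = 807), and their median widths were 903 and 786 bp. A broad peak with a close neighbour outranked one without on the same chromosome in 36.5% of pairs on average, a departure of -13.5 ± 7.15 points from 50%, negative on 22 of 22 chromosomes (sign-flip permutation test, p = 2e-05, adjusted p = 3.33e-05 over 5 comparisons that were chosen after seeing the data). The order held at both widths, with medians of 532 and 728 at 700 to 999 bp and of 534 and 665 from 1000 bp upwards. After merging within 500 bp the departure was -3.01 ± 6.27 points. A merged interval takes the score of its highest-scoring member, and merging forms broad intervals from close neighbours. The merged value is therefore a description with no test. For narrow peaks the medians with and without a close neighbour were 335 and 343.

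Among the 600, the summit lay on the side towards the nearest neighbour in 309 peaks (51.5%), close to an even split. Close neighbours on both sides were found for 106 broad peaks (7.53%) and 2.52% of narrow peaks.

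Broad peaks also tended to have broad neighbours. The nearest neighbour was itself broad for 177 broad peaks (12.6%, 95% exact binomial interval 10.9 to 14.4%) and for 3.97% of narrow peaks (3.72 to 4.22%). Per chromosome the shares were 11.8 ± 6.53% and 3.95 ± 0.743%, a difference of 7.89 ± 6.24 points that was positive on 20 of 22 chromosomes. Among intermediate peaks the share was 5.8%, and broad peaks exceeded them by 6.08 points. The neighbour's width is the value that chose the broad peaks, and 2 broad peaks nearest to each other both count. These values are therefore a description with no test. The scores of the nearest neighbours differed little. Their median was 377 beside broad and 369 beside narrow peaks, and the neighbour of a broad peak ranked 1.38 ± 3.10 points above 50% (positive on 15 of 22 chromosomes; sign-flip permutation test, p = 0.0495, adjusted p = 0.0495). More than 2 Mb from the chromosome ends this departure was -0.455 ± 3.90 points (permutation test, adjusted p = 0.587), and within 2 Mb of an end it was 6.06 ± 11.0 points (permutation test, adjusted p = 0.018). These values were not tested against each other. For broad peaks of 1000 bp or more it was -0.723 ± 7.69 points (permutation test, adjusted p = 0.668).

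There were 132 pairs of broad peaks with no other peak between them, of which 57 lay within 500 bp and 74 within 2 kb of each other. The closest pair was on chromosome 14, where peaks of 727 bp (12035300 to 12036026, score 531) and 797 bp (12036128 to 12036924, score 614) were 101 bp apart. Next came a pair on chromosome 7 (2849092 to 2850200 and 2850309 to 2851472), 108 bp apart with scores of 406 and 531. The third was on chromosome 1 (26521533 to 26522287 and 26522399 to 26523750), 111 bp apart with scores of 321 and 500. The summits of these 3 pairs were 907, 1091 and 392 bp apart.

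Runs of broad peaks at gaps under 10 kb, with or without narrower peaks in between, held 258 of the broad peaks (18.3%). Of these runs 105 had 2 members, 13 had 3, 1 had 4 and 1 had 5. The longest run lay on chromosome 13 (15201293 to 15216661). Its 5 members were 1716, 724, 782, 1706 and 1306 bp wide from left to right, with scores of 685, 745, 451, 574 and 292, and they covered 6234 bp of 15369 bp. Among them lay 1 narrower peak. The run of 4 lay on chromosome 1 (26521533 to 26531728). Its members were 755, 1352, 744 and 1461 bp wide with scores of 321, 500, 532 and 510, and included the pair 111 bp apart. Of these 9 scores, only 685 and 745 lay above the broad median of 642, whereas several of the peaks were far wider than the median of 827 bp.

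Few broad peaks were isolated. Only 48 (3.41%) had no other peak within 50 kb, against 8.38% of narrow peaks. The most isolated was the 700 bp peak on chromosome 5 (27266758 to 27267457, score 569), whose nearest neighbour lay 409.5 kb away. It was followed by a 741 bp peak on chromosome 13 (41301962 to 41302702, score 962) with a gap of 177.7 kb and a 776 bp peak on chromosome 1 (21612346 to 21613121, score 365) with a gap of 136.1 kb. These 3 lay near the lower limit of width, and their summits were 223 to 239 bp from the nearer edge.

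Broad peaks were found near chromosome ends more often than narrow peaks, at a share close to that of intermediate ones. No genome was used for this, and the right end of a chromosome is the outer edge of its rightmost peak. Within 2 Mb of an end lay 278 broad peaks (19.8%), 20.2% of intermediate peaks and 15.5% of narrow peaks. Per chromosome the shares of broad and narrow peaks were 20.2 ± 8.37% and 15.7 ± 2.82% (SD, n = 22 chromosomes). Their difference of 4.54 ± 7.50 points was positive on 15 of 22 chromosomes and ran from -6.57 to 17.2 (sign-flip permutation test, p = 0.0107, adjusted p = 0.0142). Against intermediate peaks, a comparison added after seeing the data, the difference was -0.0923 ± 7.46 points (permutation test, adjusted p = 0.958). With ends of 1 Mb the difference from narrow peaks was 2.46 points (permutation test, adjusted p = 0.0676), and for peaks of 1000 bp or more it was 3.70 points (permutation test, adjusted p = 0.132).

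The density of broad peaks was 4.73 per Mb within 0.5 Mb of an end, 2.59 per Mb at 1 to 2 Mb, 1.01 per Mb at 5 to 10 Mb, 1.27 per Mb at 10 to 15 Mb and 0.768 per Mb beyond 15 Mb. Narrow peaks went from 57.9 per Mb within 0.5 Mb to 14.7 per Mb beyond 15 Mb. As a share of all peaks, broad peaks made up 5.51% within 0.5 Mb (95% exact binomial interval 4.53 to 6.64%). They made up 4.57% at 0.5 to 1 Mb (3.50 to 5.84%), 5.35% at 1 to 2 Mb (4.43 to 6.39%) and 4.48% at 2 to 5 Mb (3.93 to 5.07%). The share was lowest at 5 to 10 Mb, 3.35% (2.93 to 3.82%), and rose again to 5.37% at 10 to 15 Mb (4.78 to 6.02%). It was thus not a steady decline from the ends inwards. These intervals cover counting error only, and clustered peaks are not independent. The 10 to 15 Mb class includes the fullest 1 Mb bin, on chromosome 20 (12000001 to 13000000), with 17 broad peaks. Whether the rise rests on a few such bins was not tested. The broad peaks nearest to an end were the last peaks of chromosome 8 (54171987 to 54173352, score 1102) and chromosome 1 (58863832 to 58865271, score 814), whose own edges define those ends, and a peak on chromosome 9 (56876214 to 56877292, score 622) centred 0.00461 Mb from the end.

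Broad peaks near the ends scored higher than those inside the chromosomes. Within 2 Mb of an end their median score was 748 (quartiles 580.5 and 955.5, n = 278), against 595 (443 and 867, n = 1129) farther in, while median widths were 836.5 and 824 bp. A broad peak near an end outranked one farther in on the same chromosome in 61.9% of pairs, a departure of 11.9 ± 10.7 points, positive on 19 of 22 chromosomes (sign-flip permutation test, p = 2e-05, adjusted p = 3.33e-05). This comparison, too, was chosen after seeing the data, so its p-value is not independent support. For narrow peaks the median scores were 356 within 2 Mb of an end and 339 farther in. Intermediate peaks are not compared in this way here.

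The excess of close neighbours was larger in the inner sequence than near the ends. More than 2 Mb from both ends, 42.4% of broad and 20.7% of narrow peaks per chromosome had a neighbour within 2 kb, a difference of 21.8 ± 7.66 points (positive on 22 of 22 chromosomes; sign-flip permutation test, adjusted p = 8e-05). Within 2 Mb of an end the shares were 36.2% and 34.6%, a difference of 1.63 ± 17.9 points (positive on 11 of 22 chromosomes; permutation test, adjusted p = 0.672). The difference between these differences was 20.1 ± 20.1 points, positive on 18 of 22 chromosomes (sign-flip permutation test, p = 0.00022, adjusted p = 0.000275). This comparison was chosen after seeing the data. After merging within 500 bp it was 6.73 ± 9.94 points, a description only, because merging itself forms broad intervals from close neighbours. Narrow peaks near the ends were themselves more crowded than those farther in, and the 278 broad peaks there leave few per chromosome.

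Chromosomes held between 44 and 101 broad peaks. The mean share of a chromosome's peaks was 4.36 ± 0.699% (SD, n = 22 chromosomes) and the mean density was 1.21 ± 0.235 per Mb. The highest shares were on chromosome 1 (101 of 1619 peaks, 6.24%, 95% exact binomial interval 5.11 to 7.53%), chromosome 16 (101 of 1827, 5.53%, 4.53 to 6.68%) and chromosome 14 (70 of 1269, 5.52%, 4.33 to 6.92%). The lowest were on chromosome 25 (48 of 1346, 3.57%, 2.64 to 4.70%), chromosome 19 (59 of 1581, 3.73%) and chromosome 7 (63 of 1645, 3.83%). The intervals of chromosomes 1 and 16 lay above the pooled 4.39%, none lay below it, and the others overlapped it. Chromosome 25 had the most peaks per Mb of the 22 chromosomes, 36.5, and the lowest broad share. Across chromosomes, Spearman's rho between the density of all peaks and the share of broad ones was -0.139.

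**Figure D4:**
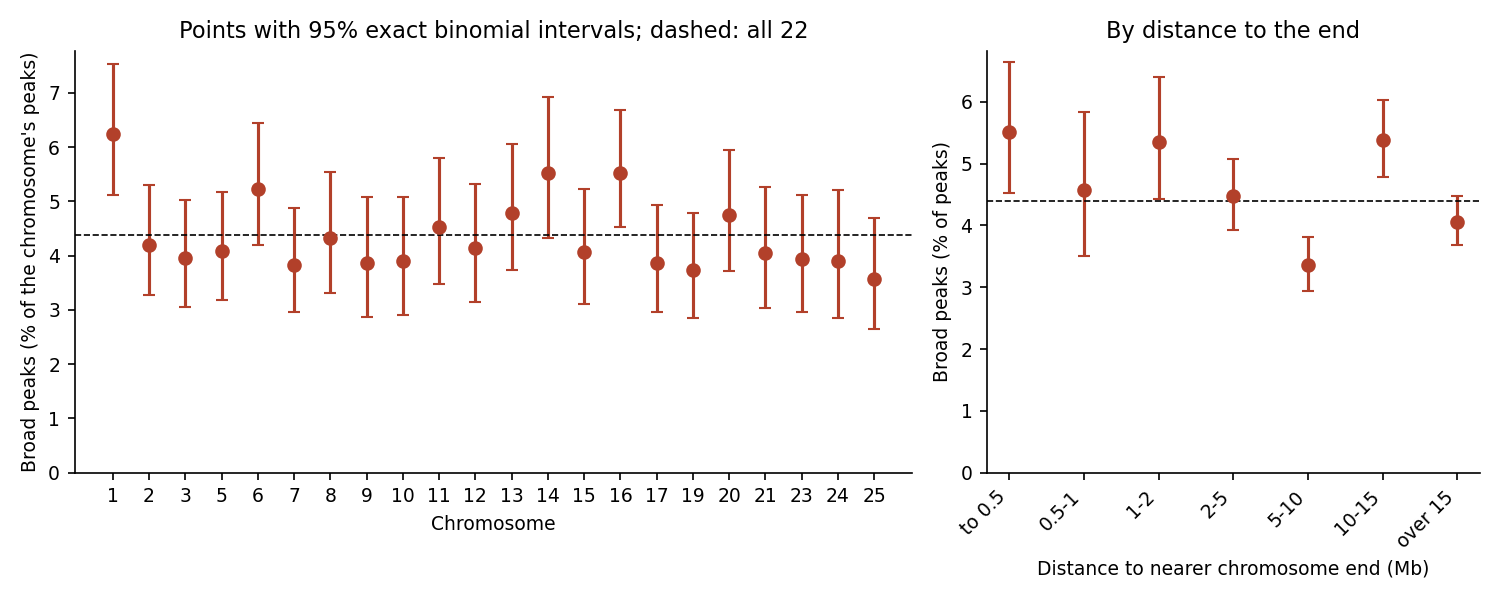
Left, broad peaks as a percentage of all peaks on each of 22 chromosomes. Right, the same by distance in Mb to the nearer chromosome end. Bars are 95% exact binomial intervals, which cover counting error only, and the dashed line marks the pooled 4.39%. Chromosome 1 is highest at 6.24%, and the share dips to 3.35% at 5 to 10 Mb from the ends.

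Median scores of broad peaks ran from 547 on chromosomes 1 and 15 to 751.5 on chromosome 24, and exceeded the median of all peaks in 22 of 22 chromosomes. Median widths ran from 764 bp on chromosome 12 to 880.5 bp on chromosome 6. The share of broad peaks that reached 1000 bp was highest on chromosome 17, at 41.0% (25 of 61), and lowest on chromosome 12, at 17.5% (10 of 57).

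Within chromosomes broad peaks were unevenly spread. Of 1162 whole bins of 1 Mb, 535 (46.0%) held no broad peak and 69 (5.94%) held 5 or more. These 69 bins contained 453 broad peaks, 32.2% of them, and 11.9% of all peaks. They were picked by their number of broad peaks, so a larger share of broad than of all peaks follows from that choice. The spread of narrower peaks over bins is not given here, and whether the unevenness is particular to broad peaks was not tested. The number of broad peaks per bin had a mean of 1.19 and a variance of 3.15. Bins with more peaks of any width held more broad ones (Spearman's rho = 0.557 across bins, which are not independent).

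**Figure D5:**
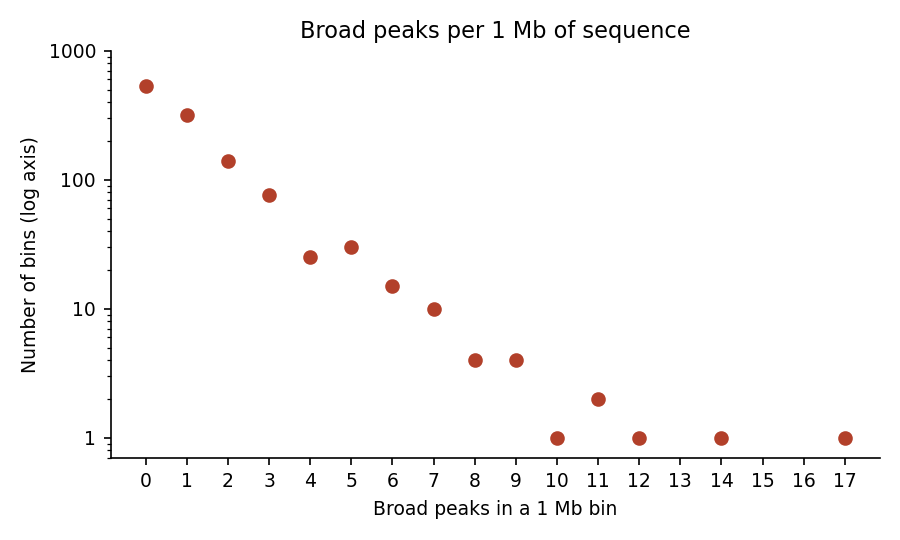
Number of 1 Mb bins (log axis) by the number of broad peaks they held, over 1162 bins of 22 chromosomes. Most bins hold 0 or 1, 69 hold 5 or more, and the fullest holds 17.

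The fullest bins, chosen after their values were seen, lay mostly inside the chromosomes. In the 10 fullest, 111 of 664 peaks (16.7%) were broad, and only 2 of these bins touched the outer 2 Mb of a chromosome. The first was on chromosome 20 (12000001 to 13000000), with 17 broad peaks among 83. These 17 were 717 to 1480 bp wide with a median of 1031 bp and scored 200 to 796 with a median of 493, and 16 of them had a neighbour within 2 kb. On chromosome 13 (15000001 to 16000000) 11 of 47 peaks were broad, with a median width of 1439 bp and a median score of 574. This bin holds the run of 5. On chromosome 1 the adjoining bins from 26000001 to 27000000 and from 27000001 to 28000000 held 12 of 58 and 9 of 59, with median scores of 536.5 and 411. On chromosome 14 (12000001 to 13000000) 11 of 49 were broad, and on chromosome 16 (18000001 to 19000000) 10 of 62.

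Broad peaks of the full bins inside the chromosomes and of those at the ends were unlike in score. The first megabase of chromosome 6 held 14 broad peaks among 86, with a median score of 789.5, and that of chromosome 2 held 9 among 96, with a median of 715. Over all bins with 5 or more broad peaks, the 305 broad peaks more than 2 Mb from an end had medians of 522 in score and 906 bp in width, and 66.6% had a close neighbour. The 148 within 2 Mb of an end had medians of 743 and 855.5 bp, and 41.9% had a close neighbour. The 824 broad peaks elsewhere inside the chromosomes had medians of 662 and 797 bp, and 35.3% had a close neighbour. Full inner bins therefore held wide, closely neighboured peaks of modest score, and full end bins held higher-scoring ones. These groups were formed from the positions of the broad peaks themselves, and no test was made between them.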

How the data were processed

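CTCF binding was measured by ChIP-seq in 2 ChIP libraries with 2 input libraries of zebrafish embryos at 24 hpf. Per the labels' protocols, chromatin was fixed in 1% formaldehyde for 15 min and sheared to 100 to 200 bp, and reads were single-end of 100 bp. The authors deposited 1 peak list on the combined replicates, per the file headers, with start, end, summit and a score per peak; the scale of the deposited score is not stated, and its signal, p and q columns are 0. The submitters' processing notes name danRer10, MACS2, deepTools 3.0.1, Picard 1.45, SAMtools 1.1, Bowtie2 2.2.5, cutadapt 1.3, FastQC 0.9.3 and CASAVA, without roles. The threshold and the use of the input, which set how wide a peak is called, are not stated in the sources used here.

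Coordinates are danRer10, 1-based. No danRer10 sequence or annotation was used. Members, comparisons and thresholds were chosen with earlier results of these data known. Regions named are the widest, the highest- and lowest-scoring, the most and least centred, the nearest to an end, the most isolated, the closest pairs, the longest runs and the chromosomes of highest and lowest share; the rule asked for the longest run only, and the next one, the exact-width classes and the fullest bins were chosen after their values were seen. Differences were taken within chromosomes and tested over 22 chromosomes by two-sided sign-flip permutation tests with 100000 resamples. Benjamini-Hochberg adjustment was over 4 tests, and over 5 added after seeing the data. Of the 4, the one on broad neighbours uses the width that chose the peaks and is given as a description. Of the 5, 2 split the broad peaks by width and are given as descriptions. Scores were compared as the percentage of pairs in which the first peak outranked the second, with ties split. An adjusted p under 0.05 counted as passing. Intervals are exact (Clopper-Pearson) at 95%. Tests were tried on simulated peaks placed with equal odds along each chromosome, without and with planted differences. Real peaks are crowded near ends and in clusters, so these trials do not show how the tests behave under such crowding. Alternatives were other widths, ends, neighbour distances, comparison peaks, scores and chromosomes, and merging. Python 3.11.15, numpy 2.4.6, scipy 1.17.1, pandas 2.3.3 and matplotlib 3.10.9 were used.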

Additional observations from a re-analysis of the deposited data

Results flagged for a closer look

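The share of peaks with a neighbour within 2 kb, broad minus narrow, was 21.8 points inside the chromosomes and 1.63 points within 2 Mb of an end. These differed by 20.1 points (sign-flip permutation test over 22 chromosomes, p = 0.00022, adjusted p = 0.000275, above 0 in 18 of 22). This comparison was chosen after seeing the data. The narrow share was 20.7% inside and 34.6% near the ends, and the difference was 6.73 points after merging within 500 bp.

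Peaks of 700 bp or more also occurred outside the 22 chromosomes of the main comparisons. Chromosomes 4, 18 and 22 held 248 of them among 4465 peaks (5.55%), with a median score of 598. Chromosome 18 had 134 (7.5% of its peaks, median width 868.5 bp), above the 6.24% of chromosome 1, chromosome 4 had 56 (5.01%) and chromosome 22 had 58 (3.72%). Unplaced scaffolds held 78 among 1085 peaks (7.19%), with medians of 661.5 in score and 889 bp in width. No test was made on these.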

How the results depend on the processing

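Under 45 of 60 alternatives, results stayed on the same side of 0 and of the 0.05 threshold, or within the spread, and 15 of the 60 were chosen after seeing the data. The 60 include results given above as descriptions, for which the threshold has no meaning. The count also says nothing of size. Merging within 500 bp took the score departure of broad peaks with a close neighbour from -13.5 to -3.01 points. It took the inner minus end difference in close neighbours from 20.1 to 6.73 points. The excess of broad peaks near ends was 3.70 points for peaks of 1000 bp or more (permutation test, adjusted p = 0.132) and 2.46 points for ends of 1 Mb (adjusted p = 0.0676), neither passing, and turned to -0.0923 points against intermediate peaks. Within 2 Mb of an end, the excess of close neighbours (1.63 points) did not pass. The excess of broad neighbours there, given as a description, was 4.41 points. The higher rank of the neighbours' scores was the least stable: it turned to -0.723 points for peaks of 1000 bp or more and to -0.455 points more than 2 Mb from the ends, and missed the threshold at 1.13 points for peaks of 600 bp or more, 1.32 against all peaks under 700 bp, 1.15 after merging, 0.705 on all 25 chromosomes and 1.1 against intermediate peaks. The cause was not tested. Merging within 500 bp gave 2451 broad intervals with a median summit offset of 29.0%, by construction, and scores at or above the upper quartile of 533 left 890. The excess of close neighbours ranged from 1.63 to 38.6 points. Depth was not analysed here, which limits what a width means, since the called length can grow with reads. No paired analysis was possible because one list stands for both ChIP replicates together.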
